A study of Mus musculus with 65 samples.

Results

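The 9 libraries described here came from primary neural stem cells (NSC) of old and young mice, grown in stem cell medium without doxycycline and sampled at 18 h. The 4 old and 5 young libraries were chosen by their titles, from 65 libraries in the series, and none was chosen by a measured value. The old cells came from mice aged 25 months and the young cells from mice aged 3 to 4 months, with 1 library for each animal. Replicates 1 and 2 of the old group were female and replicates 3 and 4 male, and young replicates 2, 3 and 5 were female and replicates 1 and 4 male. All 9 animals carried the iOSKM genotype, a doxycycline-inducible cassette for the reprogramming factors Oct4, Sox2, Klf4 and Myc with its activator M2rtTA, so both ages are transgenic and the comparison holds no wild-type animal. The cells were taken from the subventricular zone, a niche of the adult brain that retains stem cells, and were plated on laminin in a medium with the mitogens EGF and bFGF. The values therefore describe cultured, dividing cells of each age. The passage number and the promoter that drives M2rtTA are not given in the sources used here.

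Adult NSC rest between rounds of division in the tissue, and in culture with EGF and bFGF they divide as a progenitor population that can give neurons, astrocytes and oligodendrocytes. With age the niche keeps fewer active stem cells and produces fewer neurons. The question of the comparison is which transcripts differ with the age of the donor before any reprogramming factor is induced.

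The libraries held 68788580 to 106806872 counts, and M2rtTA RNA lay between 213 and 253 CPM in all 9 libraries. CPM here are counts scaled to a common library size, with TMM correction for differences in library composition. Xist and Y-linked transcripts matched the labelled sex in 9 of 9 libraries, and no pair of libraries was identical. In a principal component analysis of 500 genes the first component (47.3% of the variance) separated the sexes and the second (23.6%) separated the ages, with old libraries at 3.82 to 8 and young libraries at -9.02 to 0.292. The 16 NSC identity genes were all tested, and their summed level was 7785 to 9022 CPM in old and 8311 to 9078 CPM in young libraries. Of 15 microglia and macrophage markers 11 stayed under 1 CPM in every library, and their sum was 29.7 to 32.9 CPM in old and 31.8 to 34.1 CPM in young libraries. Endothelial markers summed to 14.6 to 20.9 CPM in old and 14.8 to 25.1 CPM in young libraries, and T cell markers to at most 0.419 and 0.602 CPM. Mural cell and fibroblast markers, mostly Acta2 and Tagln, summed to 37.5 to 59.8 CPM in old and 51.9 to 107 CPM in young libraries, and none of their 10 tested members passed the test.

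The share of counts on 3 features that overlap ribosomal RNA repeats varied among the old libraries. It was 1.51, 0.680, 0.515 and 1.22% in old replicates 1 to 4 and 1.38 to 1.73% in the young libraries, so old replicate 1 lay within the young range and the other 3 below it. The means were 0.981 ± 0.464% in old and 1.485 ± 0.149% in young libraries (SD, n = 4 and 5, exact two-sided permutation p = 0.0635, adjusted over 2 shares 0.127), where 0.0159 is the smallest p the design allows. The mitochondrially encoded share was 1.274 ± 0.139% in old and 1.43 ± 0.122% in young libraries (exact permutation p = 0.127). Values of the main results with the ribosomal share as a covariate are given beside them.

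**Figure D1:**
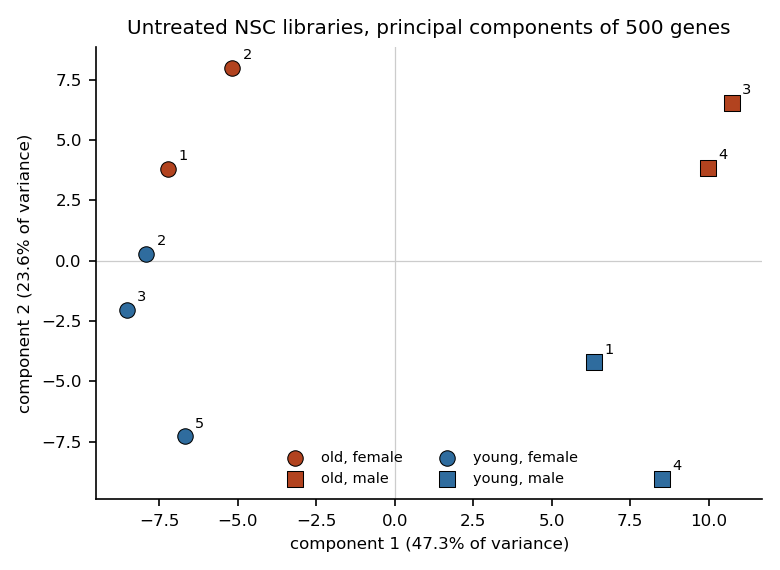
Principal components 1 and 2 of the 500 most variable genes in the 9 untreated NSC libraries, with old libraries in red, young in blue, circles for females, squares for males and replicate numbers beside the points. Component 1 (47.3% of the variance) separates the sexes, and on component 2 (23.6%) all 4 old libraries lie above the 5 young ones.

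Age differences were numerous and mostly small. Of 16701 genes tested, 994 passed an adjusted p of 0.05 in edgeR's quasi-likelihood test (5.95%), with 516 higher (3.09%) and 478 lower (2.86%) in old cells. Their median absolute log2 fold change was 0.299. Of the 994, 161 differed by more than 1.5-fold and 51 by more than 2-fold. In 887 of them the 4 old and 5 young levels did not overlap, against 1780 of all tested genes (10.7%). The median log2 fold change over all tested genes was -0.00563. Folds are old over young throughout, errors of folds are SE, and adjusted p-values of genes come from edgeR with Benjamini-Hochberg adjustment over all tested genes. The number called depended on the libraries. It was 405 without old replicate 3 and also without young replicate 1, 491 without old replicate 4, 600 without young replicate 3 and 1544 without young replicate 5, and it was 24 with the ribosomal share as a covariate.

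The largest rises among called genes that averaged 5 CPM or more in either age and did not overlap were spread over a transcription factor, phosphatases and stress genes. Gsx1, a homeobox factor of ventral forebrain progenitors, lay at 5.85, 8.40, 10.2 and 6.79 CPM in old cells and at 3.49, 4.74, 3.58, 1.99 and 4.18 CPM in young cells (1.12 ± 0.24, adjusted p = 0.0272). The tyrosine phosphatase gene Ptpn5 rose by 1.09 ± 0.20 (adjusted p = 0.0153) and Ppp2r2c, a regulatory subunit of protein phosphatase PP2A, by 1.02 ± 0.16 (adjusted p = 0.00800). The reductase gene Cyb5r2 (1.02 ± 0.13), Shisal1 (1.01 ± 0.16), the protocadherin gene Pcdhb2 (0.87 ± 0.14), Dach2 (0.81 ± 0.15), the GABA-B receptor gene Gabbr2 (0.80 ± 0.18) and the transposase-derived gene Pgbd5 (0.75 ± 0.17) rose as well. Trib3, Chac1 and Nupr1, all integrated stress response genes, complete the 12.

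The largest falls by the same rule included growth, coagulation and secreted-protein genes. Tgfb1i1, which encodes the focal adhesion protein Hic-5, lay at 5.28, 4.18, 4.75 and 4.71 CPM in old cells and at 17.2, 5.72, 18.6, 17.0 and 21.6 CPM in young cells (-1.76 ± 0.34, adjusted p = 0.0216). Young replicate 2 was close to the old libraries, and the other 4 young libraries were far above them. Anxa3, an annexin gene, lay at 13, 7.65, 7.58 and 11.3 CPM in old cells and at 26.3, 19, 29.3, 24.6 and 26.6 CPM in young cells (-1.35 ± 0.19, adjusted p = 0.00615). The thrombomodulin gene Thbd fell by 1.16 ± 0.19 and the homeobox gene Hlx by 1.15 ± 0.17 on the log2 scale. Nrn1, encoding the neurite-promoting protein neuritin, fell by 1.10 ± 0.26, the collagen chaperone gene Fkbp10 by 1.05 ± 0.24, and Pla2g7, encoding a secreted phospholipase that hydrolyses platelet-activating factor, by 1.01 ± 0.20. Crispld2 fell by 0.97 ± 0.17. Dhh, the desert hedgehog gene, fell by 0.95 ± 0.23 and Gm49442 by 1 ± 0.22. The last 2 overlap on opposite strands. Igf2bp2 and Grb10, described with the growth genes, complete the 12.

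The list with the largest share of called genes was the integrated stress response. In this pathway kinases that sense amino acid shortage, misfolded protein, haem shortage or double-stranded RNA phosphorylate the translation factor eIF2, general translation slows, and the transcription factor ATF4 is made from an mRNA whose upstream reading frames otherwise hold it back. ATF4 and its partners then raise genes for amino acid uptake, amino acid synthesis, tRNA charging and, under lasting stress, cell death. The pathway has been studied in dividing cells because protein synthesis and amino acid supply must match.

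Of 28 tested features of 27 integrated stress response genes, 18 passed the test and all 18 were higher in old cells, which is 64.3% of the list beside 5.95% of all tested genes. Their list median was 0.26 beside -0.00563 over all genes, and 25 of the 28 estimates were positive. In each of the 18 called features the lowest old library was above the highest young library. Old and young levels also did not overlap in 887 of all 994 called genes, so this adds little to the calls. The list was assembled with results of these data known and gives no independent evidence of its direction. The count was 17 to 19 under other scaling, no low-count filter, DESeq2, limma-voom and limma on the deposited variance-stabilised values. It was 10 without young replicate 1, 11 without old replicate 3, and 4 with the ribosomal share as a covariate, where Atf4, Asns, Slc7a5 and Chac1 still passed.

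Of the transcription factors of the response, Atf4, Atf5 and Ddit3 passed the test, as did the stress regulator Nupr1. Atf4 (ENSMUSG00000042406, mm10 chromosome 15, 80255184 to 80257541, plus strand) lay at 203, 201, 208 and 203 CPM in old cells and at 166, 164, 173, 169 and 159 CPM in young cells (0.30 ± 0.03, adjusted p = 0.000951). The old libraries lay close together and all stood above every young library. Atf5, a related factor also controlled by translation, lay at 183, 165, 212 and 177 CPM in old cells and at 135, 121, 135, 131 and 157 CPM in young cells (0.44 ± 0.08, adjusted p = 0.0169). Atf5 overlaps Nup62 and Il4i1 on the other strand, and because the strand setting of the counting is not given in the sources used here, reads of such pairs cannot be told apart with certainty. Ddit3 encodes CHOP, a factor of prolonged stress, and its main feature (ENSMUSG00000025408, chromosome 10, 127290774 to 127296288) lay at 15.5, 15.7, 16.8 and 16.4 CPM in old cells and at 11.1, 10.1, 11.8, 9.48 and 11.3 CPM in young cells (0.58 ± 0.07, adjusted p = 0.00201). A second annotated feature with the same symbol lies inside it on the same strand and was also higher (0.54 ± 0.13, adjusted p = 0.0367), so those 2 calls are not independent. Ddit3 also overlaps Mars on the opposite strand, and 59 of 195 genes examined for overlap have such a neighbour. Nupr1, a stress-induced nuclear protein, lay at 5.54, 6.62, 8.86 and 5.25 CPM in old cells and at 3.42, 2.72, 3.75, 3.69 and 4.28 CPM in young cells (0.87 ± 0.16, adjusted p = 0.0139). Cebpb (0.11 ± 0.10) and Cebpg (0.15 ± 0.05, adjusted p = 0.0814), which pair with ATF4, did not pass.

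Effectors and feedback genes had the largest folds of the list. Chac1 (ENSMUSG00000027313, chromosome 2, 119351229 to 119354381, plus strand), an enzyme that degrades glutathione, lay at 8.66, 10.8, 10.5 and 9.34 CPM in old cells and at 4.90, 5.21, 5.52, 4.78 and 4.09 CPM in young cells. Its mean was 9.82 ± 0.990 CPM in old cells against 4.90 ± 0.539 CPM in young cells (SD, n = 4 and 5), a difference of 1 ± 0.10 on the log2 scale (adjusted p = 0.000951). Trib3, a pseudokinase that binds ATF4 and restrains it, lay at 6.26, 8.88, 8.38 and 7 CPM in old cells and at 3.95, 2.58, 4.63, 4.44 and 2.81 CPM in young cells (1.05 ± 0.18, adjusted p = 0.0108). In both genes the old and young libraries did not overlap. Sesn2, which senses leucine and inhibits mTORC1, rose less (0.17 ± 0.04, adjusted p = 0.0296). Ddit4, another mTORC1 inhibitor, had 93.5 CPM in old cells against 95.6 CPM in young cells and did not pass (-0.03 ± 0.12, adjusted p = 0.904).

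Amino acid transporter genes were among the risers. Slc7a5 encodes the LAT1 transporter of large neutral amino acids and lay at 246, 303, 292 and 286 CPM in old cells and at 177, 190, 196, 200 and 187 CPM in young cells (0.57 ± 0.06, adjusted p = 0.000980). Its heavy chain partner gene Slc3a2 rose by 0.21 ± 0.05 (adjusted p = 0.0247), and the cationic amino acid transporter gene Slc7a3 by 0.45 ± 0.10 (adjusted p = 0.0200). The cystine transporter gene Slc7a11 had 98.6 CPM in old cells against 86.4 CPM in young cells and did not pass (0.19 ± 0.07, adjusted p = 0.143). The neutral transporter gene Slc1a4 was at 147 CPM in old cells against 146 CPM in young cells. Slc1a5, another neutral transporter gene, went the other way and did not pass (-0.81 ± 0.54, adjusted p = 0.418). It lay at 11.3, 4.21, 3.76 and 20.4 CPM in old cells and had a mean of 17.4 CPM in young cells.

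Most listed genes of amino acid synthesis rose as well. Asns, which makes asparagine, lay at 118, 133, 135 and 132 CPM in old cells and at 94.9, 95.1, 101, 104 and 95.4 CPM in young cells (0.40 ± 0.05, adjusted p = 0.00190). Old replicate 1 was the lowest of its group and still above every young library. For serine synthesis, Phgdh, the first enzyme, rose by 0.23 ± 0.05 (adjusted p = 0.0197) and Psph, the last, by 0.21 ± 0.04 (adjusted p = 0.0123), and Psat1 between them did not pass (0.12 ± 0.05, adjusted p = 0.153). The mitochondrial one-carbon genes Shmt2 (0.31 ± 0.04, adjusted p = 0.00258) and Mthfd2 (0.34 ± 0.08, adjusted p = 0.0417) were higher. For proline synthesis, Aldh18a1 rose by 0.23 ± 0.05 and Pycr1 by 0.32 ± 0.06.

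Aminoacyl-tRNA synthetases attach amino acids to their tRNAs, and several of their genes are known ATF4 targets. This list was added after the values of the other lists had been seen. Of 21 cytosolic synthetase symbols 20 were tested, and 12 were higher and none lower, with a median of 0.16, beside 3.09% higher and 2.86% lower of all tested genes. Of the 20 estimates 17 were positive. Nars, for asparagine, lay at 259, 261, 279 and 271 CPM in old cells and at 219, 213, 230, 220 and 212 CPM in young cells (0.29 ± 0.03, adjusted p = 0.00201). Sars for serine (0.28 ± 0.03), Aars for alanine (0.24 ± 0.03), Cars for cysteine (0.25 ± 0.04) and Rars for arginine (0.24 ± 0.03) rose by similar amounts. Dars for aspartate, Farsa for phenylalanine and Qars for glutamine had estimates of -0.02, -0.00 and -0.07 and did not pass. With the ribosomal share as a covariate none of the 20 passed in edgeR (14 had an unadjusted p under 0.05).

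**Figure D2:**
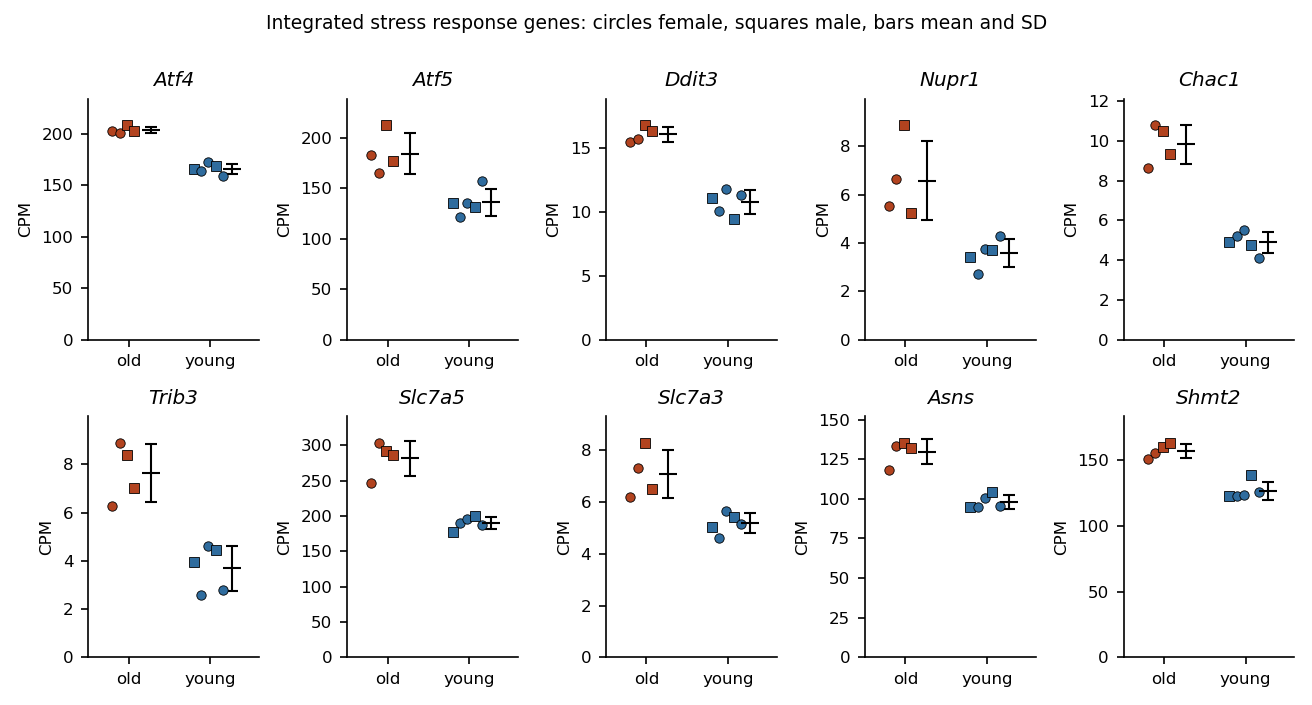
Levels of 10 integrated stress response genes in CPM, with each old library in red on the left and each young library in blue on the right, circles for females, squares for males, and the mean with its SD as black bars. In all 10 panels the lowest old library lies above the highest young library, and Chac1 and Trib3 differ most. The 10 genes were chosen among those that passed the test.

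The promoters of these genes were searched for the C/EBP-ATF response element, at which ATF4 with a C/EBP partner is known to bind, because many of the genes moved together. The letters TGATGNAA were searched on both strands in the 250 bases before each gene start in RefSeq promoters of GRCm38.p6. Of the 17 called genes 15 matched the table, with 16 promoters, and 4 of the 16 held the motif (25.0%). It was held by 3 of 11 promoters of the integrated stress response genes that were not called (27.3%), by 2.05% of 15297 promoters of tested genes, and by 3.45% of all 32851 promoters. The list was written from known genes of the response, so its share above that of all tested genes is no result of these data. Called and uncalled genes of the list had similar shares. The called genes with the motif are shown 5′ to 3′ on the strand of the gene, ending at the base before its RefSeq start, with the motif in capitals. RefSeq starts can differ from the gene spans given above, and that of Chac1 lies inside its span.
Asns, chr6:7693210-7693459, minus strand: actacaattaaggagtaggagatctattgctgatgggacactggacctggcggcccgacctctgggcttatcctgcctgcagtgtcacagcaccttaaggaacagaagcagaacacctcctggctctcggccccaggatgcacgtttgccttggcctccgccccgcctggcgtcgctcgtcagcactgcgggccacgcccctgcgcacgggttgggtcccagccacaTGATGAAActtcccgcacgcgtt
Chac1, chr2:119350992-119351241, plus strand: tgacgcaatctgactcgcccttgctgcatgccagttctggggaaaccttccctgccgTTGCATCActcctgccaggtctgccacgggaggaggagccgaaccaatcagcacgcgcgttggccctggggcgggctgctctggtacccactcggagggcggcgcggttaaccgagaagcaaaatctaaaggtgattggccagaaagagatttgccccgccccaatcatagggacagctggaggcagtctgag
Nupr1, chr7:126625471-126625720, minus strand: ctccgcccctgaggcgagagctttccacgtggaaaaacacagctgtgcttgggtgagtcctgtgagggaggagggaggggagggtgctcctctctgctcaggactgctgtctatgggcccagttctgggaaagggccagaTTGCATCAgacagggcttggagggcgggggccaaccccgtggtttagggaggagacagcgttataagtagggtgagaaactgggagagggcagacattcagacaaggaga
Pycr1, chr11:120643749-120643998, minus strand: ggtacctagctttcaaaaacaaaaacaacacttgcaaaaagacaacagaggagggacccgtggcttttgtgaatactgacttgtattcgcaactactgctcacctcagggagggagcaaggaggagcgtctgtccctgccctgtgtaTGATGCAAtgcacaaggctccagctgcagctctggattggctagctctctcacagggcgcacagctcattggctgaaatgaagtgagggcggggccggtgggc
The motif lies 23 to 16 bases before the start of Asns and 103 to 96 bases before that of Pycr1, on the strand of the gene. In Chac1 it lies 193 to 186 and in Nupr1 110 to 103 bases before the start, on the opposite strand. A match describes these letters and shows no binding in these cells.

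The same animals also gave libraries with doxycycline in stem cell medium and libraries in differentiation medium, which lacks EGF and bFGF, so the comparisons of age in those conditions share animals with this one. With doxycycline 20 of 27 tested features of the integrated stress response list were higher in old cells and none lower, where 8.24% of all genes were called (3.71% higher and 4.54% lower). At 6 h of differentiation 0 of 27 passed in edgeR, where 1.43% of all genes were called (0.71% higher and 0.721% lower). At 18 h 1 of 26 was lower, where 5.19% of all genes were called (2.85% higher and 2.34% lower), and at 48 h 5 of 27 were higher, where 10.6% were called (5.63% higher and 5.02% lower). The list medians were 0.27 with doxycycline and 0.05, 0.02 and 0.06 at 6, 18 and 48 h. Chac1 differed by 1.11 ± 0.12 with doxycycline and by 0.03 ± 0.13, -0.46 ± 0.18 and 0.01 ± 0.25 at the 3 times of differentiation. Atf4 differed by 0.26 ± 0.04 with doxycycline and by 0.03 ± 0.06, 0.01 ± 0.05 and -0.01 ± 0.06 at those times.

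Whether the age difference at 18 h depended on the medium was tested directly. The age-by-medium term, the difference in NSC medium minus that in differentiation medium, was called for 145 of 17726 genes (0.818%), with a positive term for 107 (0.604%) and a negative term for 38 (0.214%). Of the 27 integrated stress response features tested 6 passed and 23 terms were positive. They were Chac1 (1.48 ± 0.18, adjusted p = 0.000335), Ddit3 (0.60 ± 0.09, adjusted p = 0.00285), Atf5 (0.52 ± 0.10, adjusted p = 0.0208), Asns (0.40 ± 0.07, adjusted p = 0.0129), Shmt2 (0.34 ± 0.06, adjusted p = 0.0129) and Atf4 (0.30 ± 0.06, adjusted p = 0.0303). This fit took both libraries of an animal as independent. With animals as blocks 175 genes (0.987%, 0.626% positive and 0.361% negative) and 7 of the features passed. These were the same 6 (edgeR, adjusted p of 0.000635 for Chac1 to 0.0221 for Asns) and Sesn2 (0.24 ± 0.05, adjusted p = 0.0416). Among the synthetases Nars (0.34 ± 0.05), Aars (0.25 ± 0.05) and Sars (0.24 ± 0.05) passed. Among genes whose mean over the 4 groups fitted was at least 5 CPM, which leaves out Chac1 and Epha3, the largest positive terms were those of the axon guidance gene Slit2 (1.02), Nell2 (0.78), the cell cycle gene Tcf19 (0.75) and Fam72a (0.72), and the most negative those of the potassium channel gene Kcnt1 (-0.86), the sorting receptor gene Sorl1 (-0.83), Gm16185 (-0.82) and the matrix gene Frem1 (-0.71). The number of genes with an age-by-medium call ran from 7 without young replicate 1 to 659 without young replicate 5, and was 17 without old replicate 3, 25 without young replicate 4, 27 without old replicate 2, 30 without old replicate 4, 62 without young replicate 3, 69 without young replicate 2 and 349 without old replicate 1.

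**Figure D3:**
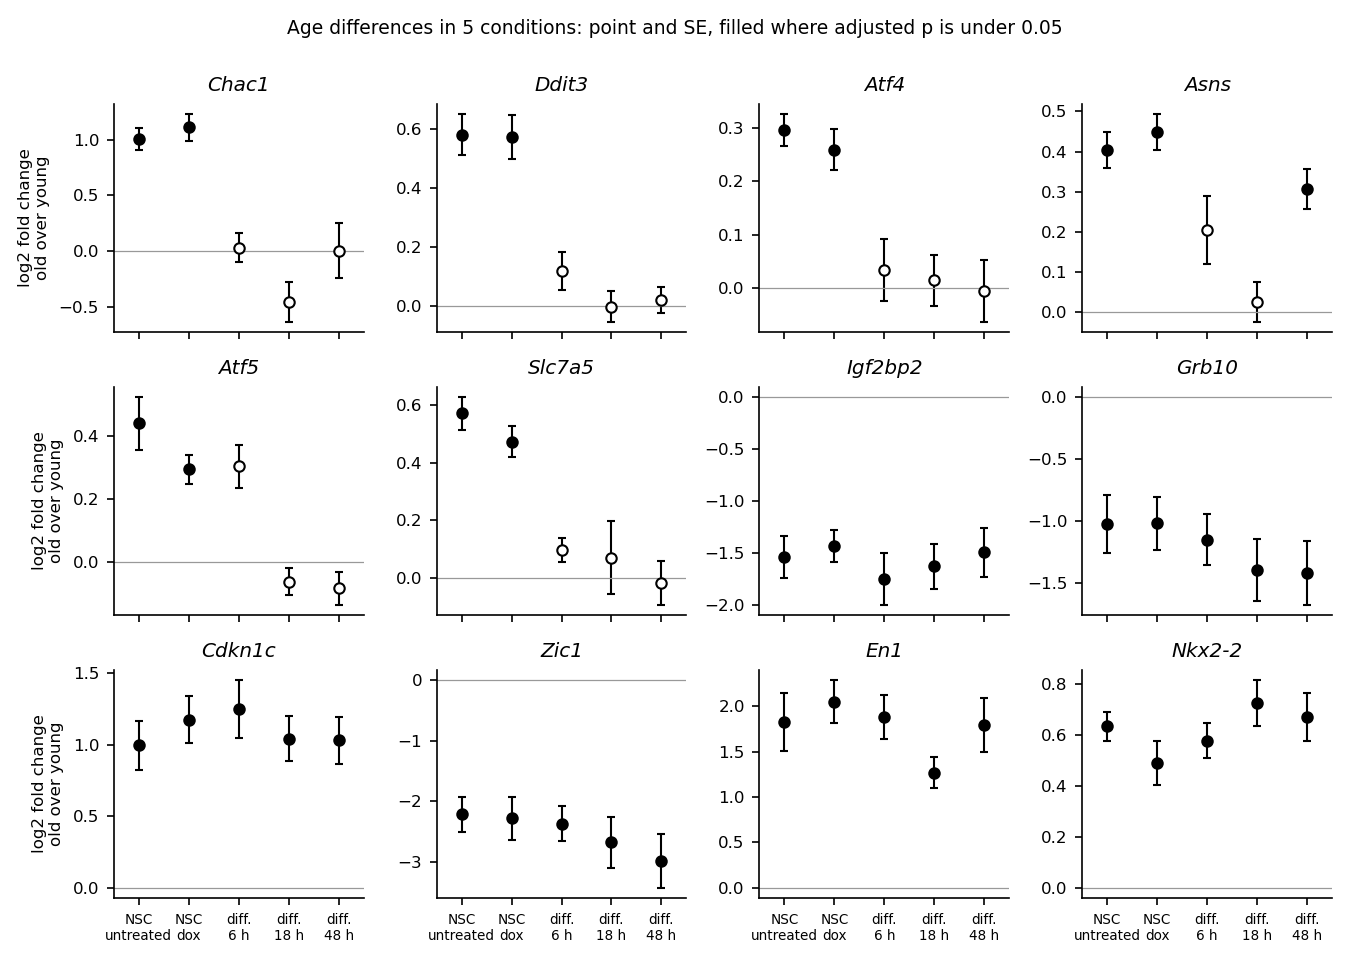
Log2 fold changes of old over young with their SE for 12 genes in NSC medium without and with doxycycline and at 6, 18 and 48 h of differentiation, with filled points where the adjusted p is under 0.05. Chac1, Ddit3, Atf4 and Slc7a5 differ in both NSC conditions and lie near 0 at 18 h of differentiation, or below it for Chac1, while Igf2bp2, Grb10, Cdkn1c, Zic1, En1 and Nkx2-2 keep their sign in all 5 conditions.

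Some genes of fetal growth and insulin signalling differed with age, more of them lower than higher in old cells. Many genes of this kind are imprinted, which means that only the maternal or the paternal copy is used, and many are high before birth and fall as tissues mature. Of 27 tested insulin, IGF and imprinted growth genes 8 were lower and 2 higher (37.0% called), with a median of -0.18, beside 2.86% lower and 3.09% higher of all tested genes. The other 17 did not pass. The count of 10 was 6 without old replicate 3 and without young replicate 1, and 2 with the ribosomal share as a covariate, where Igf2bp3 and Ndn still passed.

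Among RNA-binding growth regulators, Igf2bp2 (ENSMUSG00000033581, chromosome 16, 22059009 to 22163299, minus strand), which binds and stabilises growth factor mRNAs, lay at 13.9, 8.05, 11.1 and 10.8 CPM in old cells and at 31.3, 28.6, 33.4, 22.9 and 42.8 CPM in young cells. Its mean was 11 ± 2.39 CPM in old cells against 31.8 ± 7.27 CPM in young cells (SD, n = 4 and 5), a change of -1.54 ± 0.20 (adjusted p = 0.00563). Its relative Igf2bp3 lay at 2.19, 2.7, 2.57 and 2.52 CPM in old cells and at 4.27, 4.01, 4.55, 3.84 and 3.99 CPM in young cells (-0.73 ± 0.09, adjusted p = 0.00253). Neither gene had an old library that reached the lowest young one. Igf2bp2 was also lower in each of the other 4 conditions, with log2 fold changes of -1.74 to -1.43. Hmga2, a chromatin gene of fetal stem cells, varied more between animals and did not pass (-0.13 ± 0.32, adjusted p = 0.847).

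Several receptor and adaptor genes of the pathway were lower. Grb10, an imprinted adaptor that restrains insulin receptors, lay at 15.0, 22.7, 22.6 and 14.5 CPM in old cells and at 45.7, 28.9, 40.2, 27 and 48.3 CPM in young cells (-1.02 ± 0.23, adjusted p = 0.0390). Igf2r, the receptor that clears IGF2, fell by 0.33 ± 0.06 (adjusted p = 0.0139). The signalling receptor genes Igf1r (-0.23 ± 0.05, adjusted p = 0.0266) and Insr (-0.17 ± 0.04, adjusted p = 0.0291) and the adaptor gene Irs2 (-0.18 ± 0.04, adjusted p = 0.0361) fell less. The adaptor gene Irs1 had 76.8 CPM in old cells against 80.8 CPM in young cells and did not pass (-0.07 ± 0.05, adjusted p = 0.414). At 18 h of differentiation Irs2 was instead higher in old cells (0.25 ± 0.05, adjusted p = 0.0162), and its age-by-medium term was -0.41 ± 0.07 (adjusted p = 0.0118).

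Other imprinted genes were mixed. Ndn, which encodes the growth suppressor necdin, lay at 34.7, 35.6, 38.1 and 35.0 CPM in old cells and at 42.0, 43.5, 44.9, 44.0 and 45.4 CPM in young cells (-0.29 ± 0.04, adjusted p = 0.00258). Cdkn1c, the Cdk inhibitor p57, went the other way with 1.43, 1.89, 2.55 and 2.22 CPM in old cells and 1.14, 1.08, 0.827, 1.01 and 1.02 CPM in young cells (1 ± 0.17, adjusted p = 0.00860). Nnat, a small membrane protein gene, rose by 0.37 ± 0.06 (adjusted p = 0.00638). Peg10 had 357 CPM in old cells against 492 CPM in young cells and did not pass (-0.46 ± 0.12, adjusted p = 0.0585), and neither did the H19 RNA (0.321 CPM in old cells against 0.741 CPM in young cells, adjusted p = 0.0567). Zdbf2, an imprinted gene outside the list that was chosen after its values were seen, lay at 0.394, 0.460, 0.548 and 0.387 CPM in old cells and at 2.13, 2.88, 1.6, 1.83 and 3.25 CPM in young cells (-2.38 ± 0.24, adjusted p = 0.000951).

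**Figure D4:**
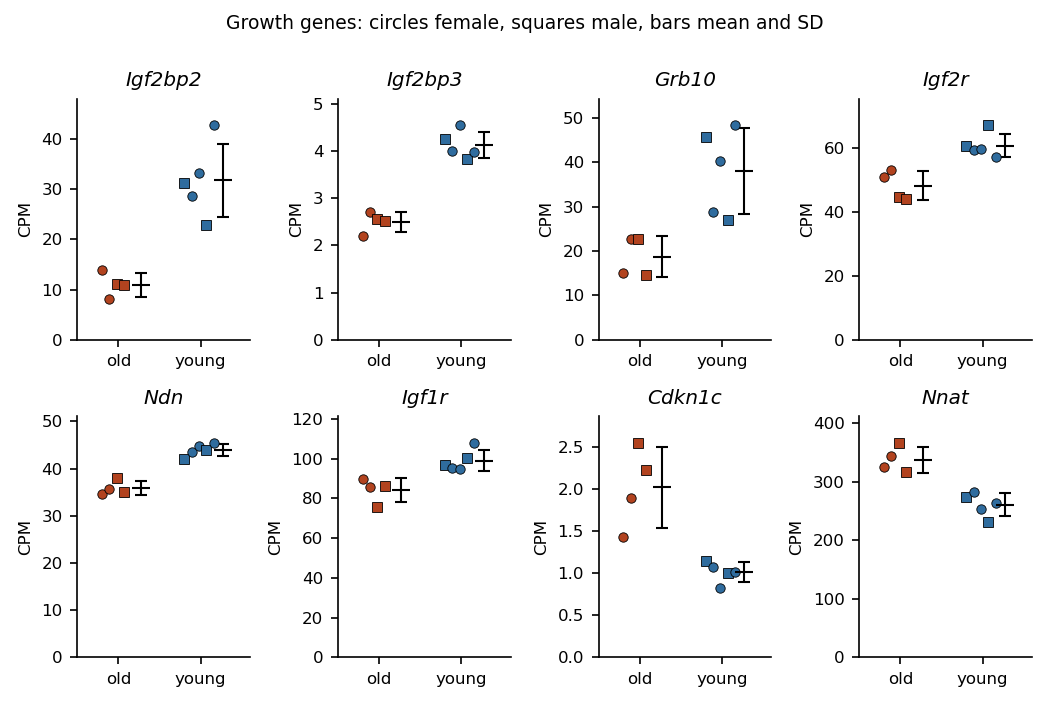
Levels of 8 insulin, IGF and imprinted growth genes in CPM, with each old library in red on the left and each young library in blue on the right, circles for females, squares for males, and the mean with its SD as black bars. Igf2bp2, Igf2bp3, Grb10, Igf2r, Ndn and Igf1r are lower in all 4 old libraries than in any young one, and Cdkn1c and Nnat are higher. The 8 genes were chosen among those that passed the test.

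Transcription factors that mark the position of progenitors along the neural axis differed in both directions. Of 16 tested patterning factors 2 were higher and 3 lower in old cells, with a median of -0.17. Over all tested genes 3.09% were higher and 2.86% lower. En1, a factor of midbrain and hindbrain, lay at 1.14, 1.34, 1.69 and 0.862 CPM in old cells and at 0.686, 0.204, 0.307, 0.241 and 0.340 CPM in young cells (1.82 ± 0.32, adjusted p = 0.00950). Zic1, a zinc finger factor of dorsal neural tube and septum, lay at 0.649, 0.642, 0.559 and 0.310 CPM in old cells and at 3.44, 2.69, 3.02, 1.84 and 1.57 CPM in young cells (-2.21 ± 0.28, adjusted p = 0.00266). Zic4 (-1.87 ± 0.37) was lower too, with means under 1 CPM in both groups, and is named outside the rule for named genes. Zic1 and Zic4 overlap on opposite strands. Abundant forebrain factors did not pass, such as Six3 (132 CPM in old cells against 138 CPM in young cells), Lhx2 (73.8 and 69.5 CPM) and Emx2 (44.5 and 42.4 CPM). In these bulk libraries fewer cells of a type and less RNA per cell cannot be told apart.

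Some oligodendrocyte lineage genes were higher in old cells. Of 18 tested 5 were higher and none lower, with a median of 0.26, beside 3.09% higher and 2.86% lower of all tested genes. Estimates were positive for 13 and negative for 5. The summed level of the list was 2035 to 2397 CPM in old and 1990 to 2369 CPM in young libraries. Nkx2-2, a homeobox factor of oligodendrocyte differentiation, lay at 49.3, 56.6, 59.7 and 53.2 CPM in old cells and at 33.7, 37.5, 33.5, 37.1 and 34.6 CPM in young cells (0.63 ± 0.06, adjusted p = 0.000951), and passed with the ribosomal share as a covariate. The transcription factor gene Zfp488 (0.93 ± 0.22) and the galactolipid enzyme gene Ugt8a (0.62 ± 0.13) rose, as did the precursor proteoglycan gene Cspg4 (0.39 ± 0.09) and the lineage factor gene Sox8 (0.24 ± 0.04). Olig1 was at 1595 CPM in old cells against 1616 CPM in young cells and did not pass. The precursor receptor gene Pdgfra had 4.97 CPM in old cells against 3.8 CPM in young cells and did not pass either (adjusted p = 0.430).

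Neuronal and astrocyte genes split. The shares called were 27.3% for mature neuron, 25% for neuroblast and interneuron and 13% for quiescent stem cell and astrocyte genes. Over all tested genes the share was 5.95%. Of 11 mature neuron genes 3 were higher, the microtubule regulator Stmn3 (0.49 ± 0.07), the NMDA receptor subunit Grin1 (0.42 ± 0.10) and the vesicle gene Syn1 (0.25 ± 0.05). Of 16 neuroblast and interneuron genes Tubb3 was higher (0.64 ± 0.13), and 3 were lower, among them the guidance receptor gene Robo2 (-0.51 ± 0.07) and the interneuron factor gene Dlx2 (-0.51 ± 0.12). Of 23 quiescent stem cell and astrocyte genes none was higher and 3 were lower, with a median of -0.14. These were the gap junction gene Gja1 (-0.25 ± 0.05), the carboxypeptidase gene Cpe (-0.26 ± 0.05) and Acsbg1 (-0.21 ± 0.05). Among NSC identity genes 1 of 16 passed (6.25%), near the share of all tested genes. It was the RNA-binding protein gene Msi1, at 51.4, 49.4, 49.7 and 49.5 CPM in old cells and 42.2, 44.1, 44.3, 42.1 and 43.0 CPM in young cells (0.21 ± 0.03, adjusted p = 0.00509).

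Several genes of adhesion to the matrix were lower in old cells. Laminins form the basement membrane that integrins bind, and both hold stem cells in their niche. Of 38 laminin, integrin and proteoglycan genes 10 were lower and 2 higher in old cells (median -0.10), beside 2.86% lower and 3.09% higher of all tested genes, and 26 did not pass. Lamb1 lay at 82.8, 75.1, 72.4 and 71.4 CPM in old cells and at 97.5, 92.2, 98.9, 96.7 and 95.3 CPM in young cells (-0.35 ± 0.04, adjusted p = 0.00251). Lama3 (-0.81 ± 0.21), Lama2 (-0.72 ± 0.13), Lama5 (-0.48 ± 0.11) and Lamb2 (-0.25 ± 0.05) were lower, as were the integrin genes Itgb5 (-0.45 ± 0.08), Itga5 (-0.29 ± 0.07) and Itgav (-0.25 ± 0.04). The cell-surface proteoglycan genes Gpc4 (-0.40 ± 0.10) and Sdc4 (-0.35 ± 0.05) complete the falls. Gpc1 was higher, at 116 to 123 CPM in old cells against 92.4 to 97.7 CPM in young cells (0.32 ± 0.03, adjusted p = 0.000951), with an age-by-medium term of 0.41 (adjusted p = 0.00110), and so was Itga8 (0.51 ± 0.12). Of 30 collagen genes none was higher and 4 were lower, Col26a1 (-0.66 ± 0.17), Col4a2 (-0.31 ± 0.08), Col4a1 (-0.30 ± 0.07) and Col5a2 (-0.27 ± 0.04). Mural and fibroblast markers, which can share such genes, had a median of -0.49 over 10 tested members, and their part in these differences was not tested.

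No cell cycle gene passed, although all 36 tested estimates were positive, with a median of 0.26 (edgeR, adjusted p of 0.271 for Top2a and 0.459 for Mki67). Mki67, the proliferation antigen, lay at 372, 429, 282 and 473 CPM in old cells and at 350, 370, 348, 356 and 261 CPM in young cells. The groups overlapped, and young replicate 5 and old replicate 3 were the lowest of their groups. Among 15 cyclin D and Cdk inhibitor genes 2 rose and 2 fell (26.7% called, beside 5.95% of all tested genes). Cdkn2c, encoding p18, was higher (0.35 ± 0.08) beside Cdkn1c. Cdkn2a, the locus of p16 and Arf that is known to rise in ageing tissues, was lower in old cells at 70.3, 56.6, 70.2 and 59.0 CPM and lay at 85.3, 78.3, 75.6, 80.3 and 93.4 CPM in young cells (-0.37 ± 0.08, adjusted p = 0.0269). It was lower in each of the other 4 conditions as well, with log2 fold changes of -0.45 to -0.33. Ccnd2 fell by 0.32 ± 0.07 (adjusted p = 0.0158).

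Of 22 p53 target genes 4 were lower and 2 higher (27.3% called), beside 2.86% lower and 3.09% higher of all tested genes. The death receptor genes Fas (-0.46 ± 0.11) and Tnfrsf10b (-0.44 ± 0.06), Trp53inp1 (-0.27 ± 0.06) and Ccng1 (-0.18 ± 0.05) fell. The 2 that rose, Gdf15, a stress cytokine, at 5.16 to 5.35 CPM in old cells against 3.27 to 3.85 CPM in young cells (0.56 ± 0.07, adjusted p = 0.00258), and Sesn2, are also known to respond to ATF4. Gdf15 was 1 of 2 called members among 24 senescence-associated secreted genes, and the other, Igfbp2, fell by 0.32 ± 0.05.

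Of 36 cholesterol and fatty acid synthesis genes 6 were higher and none lower (median 0.16), beside 3.09% higher and 2.86% lower of all tested genes. Fdft1, which makes squalene, the first step committed to sterols, lay at 127, 129, 142 and 134 CPM in old cells and at 93.3, 86.7, 96.3, 118 and 113 CPM in young cells (0.39 ± 0.09, adjusted p = 0.0291). Mvk (0.29 ± 0.07), Sc5d (0.22 ± 0.06) and the regulator Srebf2 (0.17 ± 0.04) were higher, as was the elongase gene Elovl6 (0.17 ± 0.05). Of 24 fatty acid oxidation and ketone body genes 5 were lower and none higher (median -0.11). These were Acadl (-0.27 ± 0.05), the coactivator gene Ppargc1a (-0.26 ± 0.05), the carnitine transferase gene Cpt1a (-0.20 ± 0.04), Acads (-0.18 ± 0.04) and Eci2 (-0.18 ± 0.03). In glycolysis 1 of 38 passed, Slc2a12 (-0.27 ± 0.07), while 34 estimates were negative with a median of -0.15. Of 37 nuclear respiratory chain genes Uqcrfs1 (-0.14 ± 0.03) and Uqcrc2 (-0.10 ± 0.03) were lower, and of 13 mitochondrially encoded genes mt-Co1 (-0.34 ± 0.08). The old and young levels of mt-Co1 overlapped. The shares called were 2.63% for glycolysis, 5.41% for the nuclear respiratory chain and 7.69% for mitochondrially encoded genes. None of these was far above the 5.95% of all tested genes.

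Receptors and channels of neural signalling changed member by member. Of 31 glutamate and GABA receptor genes 6 were higher and 3 lower (29% called), beside 3.09% higher and 2.86% lower of all tested genes. Gabbr2 (0.80 ± 0.18), Grik1 (0.67 ± 0.17) and Grik4 (0.54 ± 0.14) rose. The 3 that fell are all NMDA receptor subunits, while Grin1, another NMDA subunit gene, was higher (0.42, adjusted p = 0.0336). Grin2b lay at 1.05, 0.618, 0.849 and 0.984 CPM in old cells and at 2.67, 2.22, 1.83, 2.43 and 2.22 CPM in young cells (-1.37 ± 0.17, adjusted p = 0.00221), Grin2c fell by 0.74 ± 0.13 and Grin2a by 0.44 ± 0.10. Of 43 potassium, sodium and calcium channel genes 5 were higher and 6 lower (25.6% called). Kcnd2 (0.59 ± 0.10), Cacng4 (0.48 ± 0.09), Kcnip3 (0.48 ± 0.07) and Kcnj10 (0.41 ± 0.09) rose, and Kcnn3 (-0.44 ± 0.08), Kcnc1 (-0.35 ± 0.07) and Kcnk1 (-0.33 ± 0.08) fell.

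Protocadherins are adhesion proteins, and the clustered ones label neurons with combinations of isoforms. Of 32 clustered and other protocadherin genes 8 were higher and 3 lower (34.4% called), beside 3.09% higher and 2.86% lower of all tested genes. Pcdhb2 lay at 8.32, 9.31, 13.1 and 8.44 CPM in old cells and at 5.21, 6.32, 5.35, 4.77 and 5.17 CPM in young cells (0.87 ± 0.14, adjusted p = 0.00596). Pcdhb17 (-0.37 ± 0.08), Pcdhb19 (-0.31 ± 0.07) and Pcdhb22 (-0.29 ± 0.06) fell. Pcdha4 (0.59 ± 0.10), Pcdha9 (0.56 ± 0.08) and Pcdhac1 (0.55 ± 0.09) share constant exons and had nearly equal levels in each library, so their 3 calls are uncertain as separate events. Of 55 other adhesion and guidance genes 5 were higher, including Slit2 (0.97 ± 0.14), Cntn4 (0.92 ± 0.24), Epha7 (0.68 ± 0.11) and Lrrc4c (0.48 ± 0.10), and 6 lower, including Epha3 (-0.55 ± 0.12), Chl1 (-0.53 ± 0.08), Robo2 and Ephb1 (-0.44 ± 0.09).

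Niche signalling genes differed in few members, with shares called of 8.7% for the Notch, 10.7% for the Wnt, 6.67% for the BMP and TGF-beta, 8.82% for the EGF and FGF and 7.41% for the immediate early list, beside 5.95% of all tested genes. In the Notch pathway (23 tested) the ligand gene Dll3 was higher (0.59 ± 0.08) and the ligand gene Jag1 lower, at 40.8 to 51.0 CPM in old cells against 60.2 to 68.2 CPM in young cells (-0.52 ± 0.07, adjusted p = 0.00258). In the Wnt pathway (28 tested) Lef1 was higher (0.75 ± 0.19) and the receptor genes Fzd5 (-0.26 ± 0.07) and Lrp6 (-0.15 ± 0.04) lower. Among 30 BMP and TGF-beta genes Tgfbr2 (-0.58 ± 0.09) and Fstl1 (-0.43 ± 0.08) were lower. Among 34 EGF and FGF genes the ligand gene Tgfa was higher (0.48 ± 0.10) and the feedback genes Dusp4 (-0.27 ± 0.05) and Spred1 (-0.14 ± 0.04) lower. Of 27 immediate early genes Nr4a1 (0.50 ± 0.08) and Ier2 (0.18 ± 0.05) were higher.

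Inflammation and protein quality control genes differed in few members. The shares called were 11.4% for the interferon, 9.52% for the cytokine and 7.5% for the proteasome, lysosome and autophagy list. They were 5.71% for the antioxidant, 3.57% for the ribosome biogenesis and 3.7% for the contractile list, beside 5.95% of all tested genes. Of 35 interferon response genes Ifi27 (0.37 ± 0.06) and Ifit2 (0.37 ± 0.07) were higher and Gbp7 (-0.41 ± 0.06) and Ddx58 (-0.34 ± 0.09) lower. Of 21 cytokine, chemokine and NF-kB genes Cxcl12 (0.80 ± 0.19) and Ptgs2 (0.56 ± 0.15) were higher, and old and young levels did not overlap in 1 of these 2. Yet 16 of the 21 estimates were negative, with a median of -0.17. None of 21 antigen presentation, 10 complement, 12 retinoic acid, 36 ribosomal protein, 30 unfolded protein and heat shock or 34 DNA methylation and chromatin genes passed in edgeR. The chaperone gene Hspa8 was at 1799 to 1968 CPM in old cells and 1847 to 1923 CPM in young cells, and Hsp90ab1 differed by 0.06 ± 0.03 (adjusted p = 0.275). The lysosomal genes Ctsd, Ctsl and Npc2 (each -0.22) were the 3 called of 40 proteasome, lysosome and autophagy genes. Gpx3 (-0.39 ± 0.10) and Gpx8 (-0.25 ± 0.06) were the 2 called of 35 antioxidant genes, and Srm (0.14 ± 0.03) the 1 called of 28 ribosome biogenesis genes. Anxa3 was the 1 called of 27 contractile, S100, annexin and galectin genes.

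**Figure D5:**
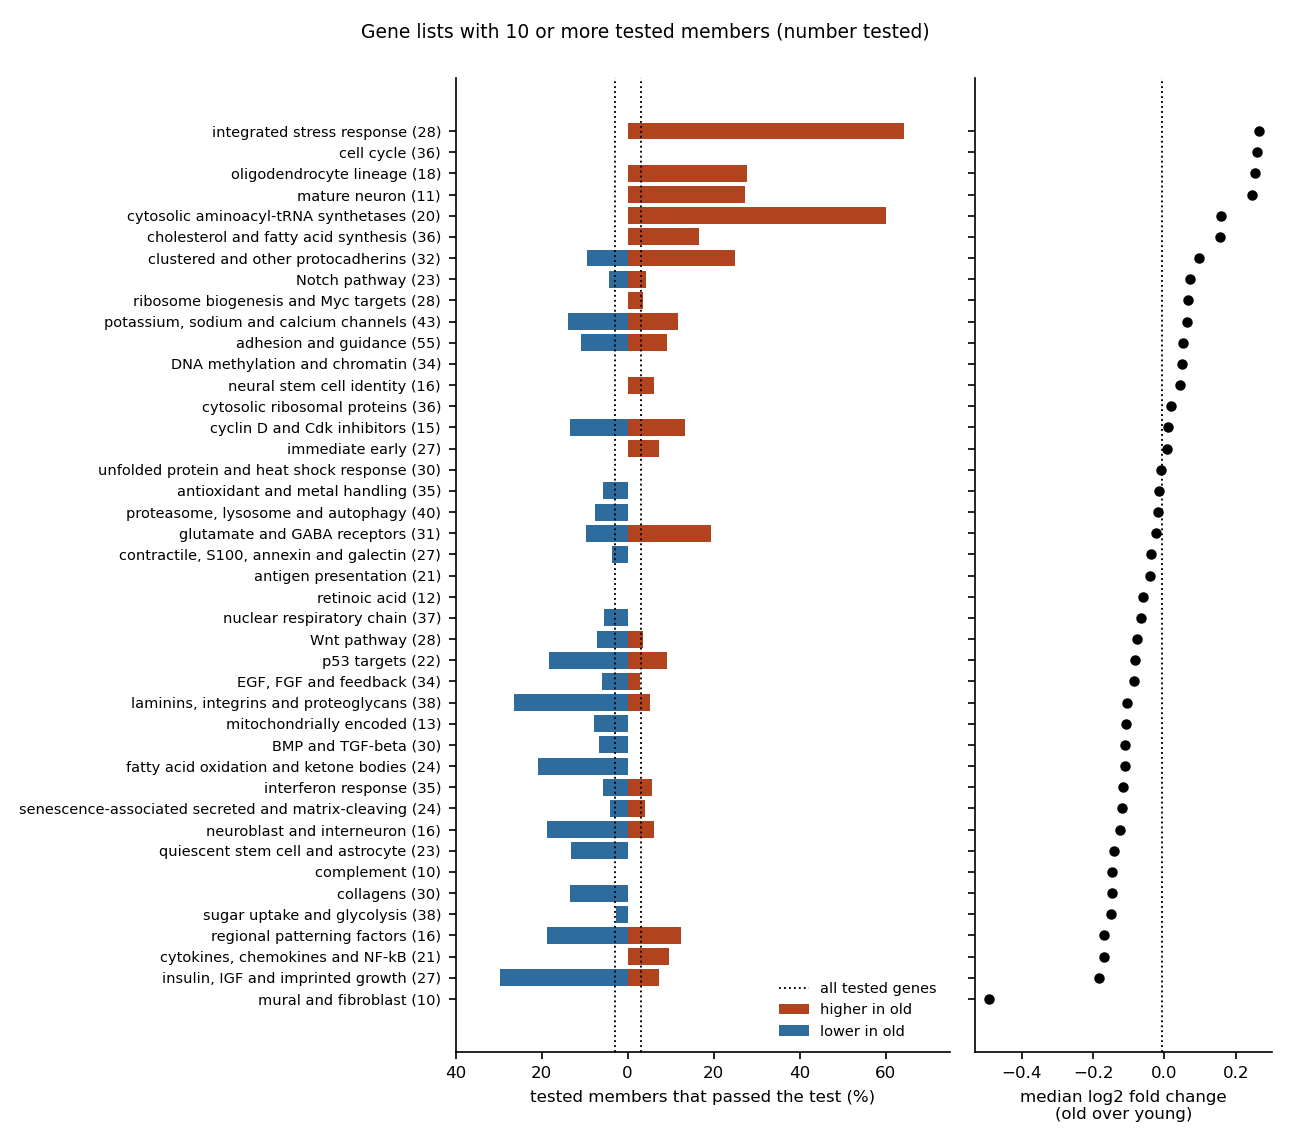
Gene lists with at least 10 tested members (number tested in brackets), ordered by median. The left panel gives the percentage of tested members that passed the test higher (red) or lower (blue) in old cells, with dotted lines at the shares of all tested genes (3.09% and 2.86%), and the right panel the median log2 fold change with a dotted line at -0.00563. Integrated stress response genes (64.3%) and cytosolic aminoacyl-tRNA synthetases (60%) have the longest bars, and the insulin, IGF and imprinted growth genes and the laminins, integrins and proteoglycans the longest to the lower side.

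The age difference was also compared between the sexes. The age-by-sex term was called for 0 of 17215 genes by edgeR (0%; 337 had an unadjusted p under 0.05, and DESeq2 called 6), with 2 libraries per sex in the old group and 3 females and 2 males in the young group. On simulated data edgeR recovered 24% of log2 changes of 0.5 and 73% of changes of 1 for the age-by-sex term. The 0 calls therefore do not show that the sexes were alike. Fitted alone, the 5 females gave 0 calls in edgeR (1237 genes with an unadjusted p under 0.05) and the 4 males 250.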

How the data were processed

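Poly(A) RNA libraries were made with a stranded kit, pooled and read as paired ends, per the labels' protocols. Per the submitters' processing notes, STAR 2.7.10b was used with build mm10, and Trim Galore 0.6.6, DESeq2 1.40.1, Subread and SAMtools are also listed. The counting settings, strand setting included, are not given in the sources used here. The authors deposited integer counts for 31057 features, of which 31011 carry a GENCODE M21 name. Values of 2 (10714) outnumber values of 1 (2752) in the 9 libraries, so both mates of most pairs were counted. The authors also deposited log2-scale variance-stabilised values, used as an alternative.

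Groups were taken from the titles. Counts were fitted in edgeR 4.0.16 (R 4.3.3) with TMM scaling, a minimum count of 10 in filterByExpr and a robust quasi-likelihood test, without covariates, over the 9 libraries. A gene was called at an adjusted p under 0.05 over all tested genes. The SE of a fold is its size over the square root of F. Terms for age by sex and age by medium came from their own fits. Within a condition the p-values measure the spread between animals, 1 library each. The age-by-medium fit took both libraries of an animal as independent, and a fit with animals as blocks was its alternative. Shares of counts were compared with an exact permutation test. DESeq2 1.42.0, limma 3.58.1, other scaling, no filter, single sexes, a sex covariate, a replicate block and omission of each library were alternatives. The ribosomal covariate and the omission of old replicates 2 and 3 were added after the data were seen. The fits were tested on simulated data.

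Named genes were up to 12 per direction with the largest folds among called, non-overlapping genes of at least 5 CPM, up to 4 called genes per direction and list of at least 1 CPM, 2 abundant genes of a list with no call, and up to 4 per direction for each interaction. Other genes named were chosen after their values were seen, and some genes that the rule selects are not reported here. All members and lists were chosen with earlier results of these data known. CPM are not corrected for length and are not compared between genes. Promoters are RefSeq sequences of GRCm38.p6.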

Additional observations from a re-analysis of the deposited data

Results flagged for a closer look

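Outlying libraries were sought in 394 groups of 4 or 5 levels of named genes and shares with Dixon's test, and 32 were found, where chance gives about 1 in 20 groups. Of these 14 concerned young replicate 5, 7 old replicate 1, 3 old replicate 3, 3 young replicate 3 and 2 young replicate 1. Young replicate 5 was the highest of its group for Aldh1a3 (72.5 CPM), B2m (86.9 CPM), Cntn4 (1.10 CPM), Csf1r (9.07 CPM), Cspg4 (74.5 CPM), Ctsd (517 CPM) and Tgfa (14.9 CPM). It was the lowest for Acads (48.3 CPM), Cdkn2c (55.4 CPM), Ifit2 (18.2 CPM), Mki67 (261 CPM), Slc2a12 (5.22 CPM), Top2a (260 CPM) and Trp53inp1 (210 CPM). For Top2a the other 4 young libraries lay at 350 to 386 CPM, and for Mki67 at 348 to 370 CPM. Young replicate 1 was highest for En1 (0.686 CPM) and lowest for Gpc1 (92.4 CPM), young replicate 3 was highest for Crispld2 (84.2 CPM) and lowest for Sorl1 (12.4 CPM) and Syn1 (27.1 CPM), and young replicate 4 was highest for Shmt2 (139 CPM).

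Old replicate 1 was lowest for Asns (118 CPM), Cacng4 (72.0 CPM), Slc2a12 (4.42 CPM) and the T cell receptor gene Trac (0.0232 CPM) and highest for Hlx (10 CPM), Itgb5 (56.6 CPM) and Msi1 (51.4 CPM). Old replicate 3 was highest for Dach2 (14.2 CPM) and Kcnj10 (70.0 CPM) and lowest for Lama3 (0.623 CPM). Old replicate 2 was highest for Csf1r (8.89 CPM) and old replicate 4 for Col4a1 (98.2 CPM).

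The age difference at 18 h differed between NSC medium and differentiation medium, by the tested age-by-medium term, for 22 named genes. The log2 term, NSC minus differentiation medium, was positive for Chac1 (1.48), Slit2 (1.02), Nell2 (0.78), Tcf19 (0.75), Fam72a (0.72), Ddit3 (0.60), Atf5 (0.52), Kcnj10 (0.44), Gpc1 (0.41), Asns (0.40), Shmt2 (0.34), Nars (0.34), Atf4 (0.30), Aars (0.25) and Sars (0.24). It was negative for Epha3 (-1.11), Kcnt1 (-0.86), Sorl1 (-0.83), Gm16185 (-0.82), Frem1 (-0.71), Kcnn3 (-0.55) and Irs2 (-0.41).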

How the results depend on the processing

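None of 168 called genes, those of the naming rule and those added to them, changed sign under any alternative run. These genes were chosen by the test on the same libraries, so a kept sign gives little further support. Of the 168, 149 to 168 were still called under RLE scaling, no low-count filter, DESeq2, limma-voom or limma on the variance-stabilised values. The number still called was 129 with sex as a covariate, 155 with the replicate block, 55 in males alone and 0 in females alone in edgeR. It was 11 with the ribosomal share as a covariate, 25 without old replicates 2 and 3, and 88 to 157 without single libraries. The 994 calls became 2041 with DESeq2, 0 in females (1237 unadjusted), 250 in males, 24 with the ribosomal covariate, 73 without old replicates 2 and 3, and 405 to 1544 without single libraries. The 18 integrated stress response calls became 0 in females, 7 in males, 4 with the ribosomal covariate, 6 without old replicates 2 and 3, and 10 to 18 without single libraries. In edgeR 21 of its 28 features had an unadjusted p under 0.05 in the main fit. That count was 20 of 28 in females, 17 of 27 in males and 19 of 28 with the ribosomal covariate. In the order females, males, ribosomal covariate and without old replicates 2 and 3, the 10 growth gene calls became 0 (13 unadjusted), 3, 2 and 2. They became 6 to 9 without single libraries. The 12 synthetase calls became 0 (12 unadjusted), 3, 0 (14 unadjusted) and 4 in that order, and 9 to 12 without single libraries.

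The age-by-sex term gave 6 calls with DESeq2, 7 with the replicate block and 0 to 2 without single libraries, and the age-by-medium term 660 with DESeq2 and 7 to 659 without single libraries. With DESeq2 the age calls were 2407 with doxycycline and 738, 1593 and 2778 at 6, 18 and 48 h of differentiation. Without single libraries they were 625 to 1375, 72 to 320, 290 to 1383 and 572 to 2461. The ribosomal share difference was -0.681 percentage points without old replicate 1 (exact permutation p = 0.0357), and -0.681 to -0.349 without single libraries. The mitochondrial share difference was -0.221 to -0.117.

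Same-numbered old and young libraries come from different animals, so the numbers pair no animals across ages. Their deviations correlated at -0.440, 0.485, -0.503 and 0.538 over 11481 genes. Numbers 1 and 3 joined a female and a male library and numbers 2 and 4 libraries of the same sex, so these correlations cannot test a pairing. The replicate block gave 1401 calls and 17 in the integrated stress response list. Genes that changed sign had not passed the test. Females alone gave Kdr -0.19, Foxj1 0.000711, Aldh1a3 -0.0455 and Rxra 0.00988. Males alone gave Cfap126 -0.0158, Clu 0.00306 and Hspa8 0.0282. The ribosomal covariate gave Foxj1 0.0151, Cfap126 -0.11 and Csf1r -0.00476. Without old replicates 2 and 3 Cfap126 was -0.10 and Hspa8 0.00467. The replicate block gave Flt1 0.0464. Without single libraries Kdr ran between -0.0703 and 0.17, Cfap126 between -0.017 and 0.15, Aldh1a3 between -0.0162 and 0.35, Hspa8 between -0.0467 and 0.00138, and Flt1 between -0.27 and 0.052. For calls lost and signs changed the cause was not tested. Genes under about 1 CPM rest on few counts even with 68788580 to 106806872 counts per library, and 4 old and 5 young animals limit the precision.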
